A study of Homo sapiens with 17 samples.

Results

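The genes described here carry messages along the transforming growth factor beta (TGF-beta) pathway: the ligand genes TGFB2 and TGFB3, the receptor genes TGFBR1 and TGFBR2, the signal carriers SMAD2, SMAD3 and SMAD4, and the inhibitors SMAD7 and SKIL. They were chosen by name, as entries of the count table whose gene symbol was on a list of 10, and 9 of the 10 were found among 58870 entries. All 9 passed the filter on low counts and were among the 15365 genes tested. The tenth, TGFB1, had no entry under its own symbol: the entry with its Ensembl identifier (ENSG00000105329) carried the symbol AC011462.1. That entry is described apart as TGFB1 matched by identifier and is not in the counts of 9.

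TGF-beta ligands are made as inactive precursors, held in a latent complex and released outside the cell. A ligand brings the type II receptor TGFBR2 together with the type I receptor TGFBR1, and TGFBR1 then phosphorylates SMAD2 and SMAD3, which bind SMAD4 and act on target genes in the nucleus. SMAD7, which blocks and degrades the type I receptor, and SKIL (SnoN), which represses SMAD complexes on DNA, are both target genes of the pathway that hold it back. In mesenchymal breast cancer lines the pathway is known for driving invasion and matrix gene expression.

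RNA was measured by stranded, poly(A)-selected, paired-end sequencing in MDA-MB-231, an established human line from a triple-negative breast cancer (no oestrogen receptor, progesterone receptor or HER2 amplification). The cells received TRAIL, a death receptor ligand of the TNF family, at a dose of 45 nM that the labels call suboptimal and meant for looking at live cells. RNA was taken at 0, 1, 3, 6, 12 and 24 h, with 3 libraries at each time except 1 h, where 2 are analysed here; all 17 come from this 1 line with no added genetic change in the labels. Every library, 0 h included, is labelled as TRAIL treated, and no untreated culture of a later time was analysed here, so hours of TRAIL and hours in culture cannot be told apart. The labels do not say that replicates were separate cultures, so the p-values measure only the spread between these libraries, which may be technical.

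The libraries held 13731497 to 19234939 counts, with a common biological coefficient of variation of 7.06%. Of the 7 markers listed for this mesenchymal line, 6 were well above the floor, with VIM at 2495 to 3724 CPM, the field's depth-scaled unit of counts (here with TMM, edgeR's trimmed mean normalisation), and SPARC was at 0.22 to 1.07 CPM. ESR1 and PGR had at most 2 counts in a library. Of the leukocyte markers CD3E was at 0 in all libraries and PTPRC and LYZ reached 5 and 6 counts. Of the fibroblast markers DCN reached 1 count, while COL1A1 had 88 to 235, COL1A2 66 to 157 and PDGFRB 23 to 78. Of the endothelial markers CDH5 reached 2 counts, PECAM1 had 11 to 68 and KDR 19 to 73. The part of such cells in the results was not tested. Because the RNA is from whole cultures, fewer cells of a kind and less RNA per cell cannot be told apart.

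Promoter sequence is shown for TGFB2 and SKIL, which both rose by 6 h and fell again by 12 h, and short windows are shown for SMAD7, the member that was high at 1 h and lowest at 24 h. The sequences are from RefSeq on GRCh38.p14, which held a start for all 10 listed genes. Capitals mark CAGAC, the SMAD box, or its reverse complement, and GGCGC, a GC-rich SMAD element, or its reverse complement. The 2 long stretches are the 250 bases before the annotated start, for TGFB2 at chr1:218345086-218345335 and for SKIL at chr3:170357465-170357714, both on the plus strand. The SMAD7 windows, of 25 bases each, are on the minus strand at chr18:48951168-48951192 and chr18:48951079-48951103.
TGFB2: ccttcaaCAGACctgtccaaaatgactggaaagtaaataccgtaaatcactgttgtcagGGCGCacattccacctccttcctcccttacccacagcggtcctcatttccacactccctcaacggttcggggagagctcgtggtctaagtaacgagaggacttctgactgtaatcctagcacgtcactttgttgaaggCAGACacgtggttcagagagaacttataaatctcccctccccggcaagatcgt
SKIL: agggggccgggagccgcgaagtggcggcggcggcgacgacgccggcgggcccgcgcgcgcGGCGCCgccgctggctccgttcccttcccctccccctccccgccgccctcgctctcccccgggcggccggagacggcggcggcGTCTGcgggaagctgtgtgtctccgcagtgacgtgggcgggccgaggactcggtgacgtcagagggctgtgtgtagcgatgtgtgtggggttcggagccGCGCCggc
SMAD7, first window: cggacgccccCAGACctctgaggtt
SMAD7, second window: cttattttgcCAGACgtctcatgcg

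In TGFB2 the SMAD box began 243 and 53 bases before the start and GGCGC began 191 bases before it. In SKIL the SMAD box lay 107 to 103 bases before the start on the minus strand, and GGCGC lay at 190 to 186 (plus), 189 to 185 (minus, overlapping the former) and 8 to 4 (minus). In SMAD7 the SMAD box began 217 and 128 bases before the most upstream of its RefSeq starts. Over the 35116 promoter windows of 300 bases in the table (250 before to 50 after a start), searched on both strands, 45.3% held CAGAC and 48.6% held GGCGC, so these letters are common. None of the 3 windows held the AP-1 motif TGANTCA (7.71% of all windows), the NF-kB consensus (11.3%) or the palindrome of GTCT and its reverse complement (0.202%, a motif added after the others). A match is a description of the letters and not of binding. Annotated exons lie under these windows: GENCODE 29 places the whole SMAD7 window in the first exon of SMAD7, and 161 of the TGFB2 bases in an exon of the antisense gene TGFB2-AS1. The RefSeq start of TGFB2 also lies upstream of the start that GENCODE 29 gives the gene.

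Per kilobase of annotated exon, the levels at 0 h ranked TGFBR2, SMAD3, TGFB1 (matched by identifier), TGFB2, TGFBR1, SMAD7, SMAD4, SKIL, SMAD2 and TGFB3, from 23.1 CPM per kb for TGFBR2 to 0.41 for TGFB3. The libraries of TGFB1 (mean 16.2 CPM per kb) and TGFB2 (16.2) overlapped at 0 h, as did those of SMAD4 (2.56) and SKIL (2.23), while the other neighbours in this order did not overlap. The place of SMAD2 (1.496) depends on its annotated exon length of 36366 bases. The top of the order depends on length too. SMAD3 has 9113 bases of exon but a longest transcript of 6247, where TGFBR2 has 4704 and 4621. Per kilobase of longest transcript SMAD3 would come before TGFBR2, and some overlaps between neighbours would change.

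**Figure D1:**
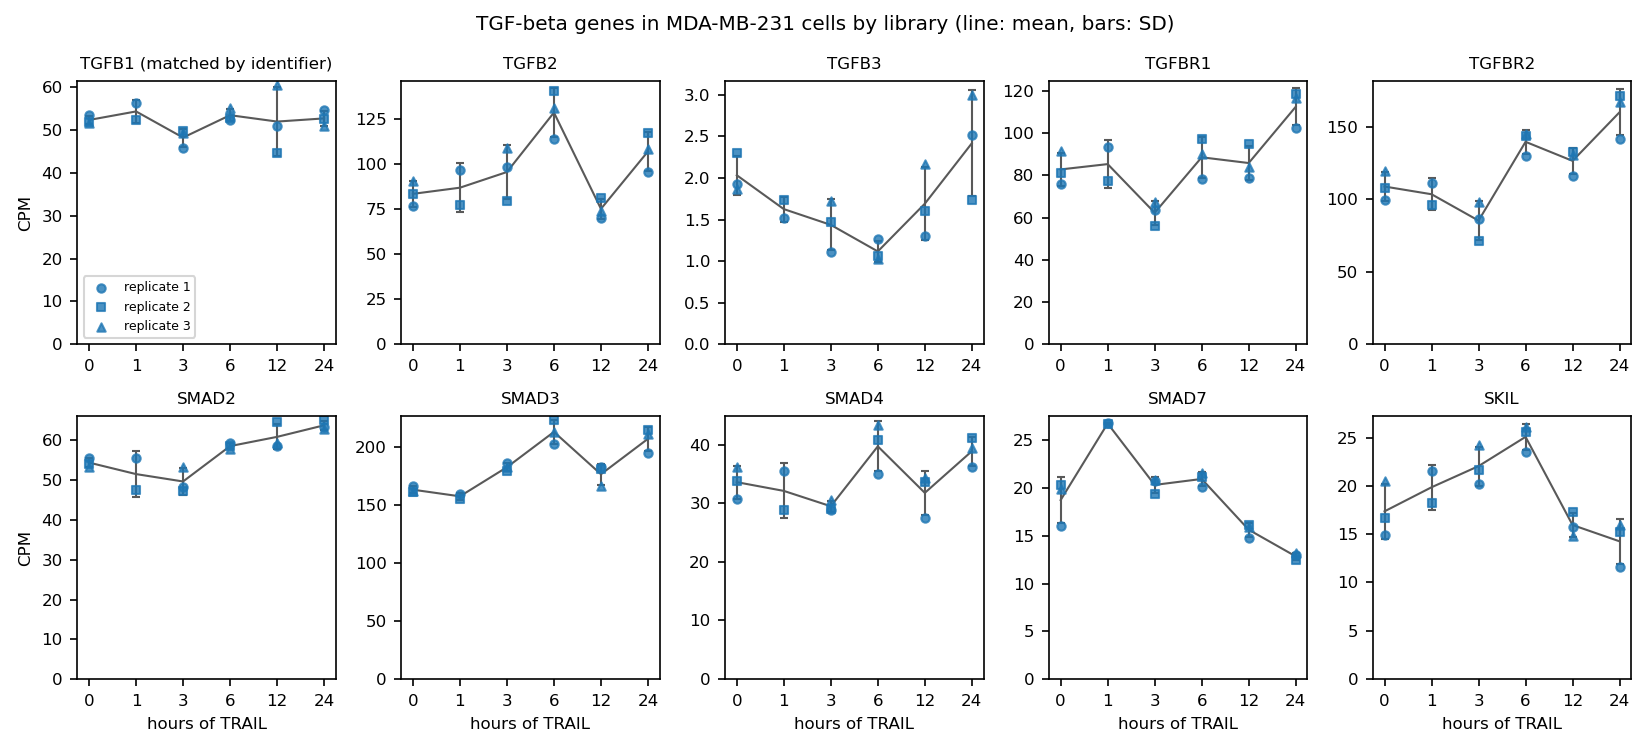
TMM-scaled CPM of each gene (y axis, from 0) against hours of TRAIL (x axis, evenly spaced), 1 point per library, with the mean as a line and the SD as bars; n = 3 per time, 2 at 1 h. SMAD7 was highest in both 1 h libraries (26.8 and 26.7 CPM) and lowest at 24 h, while TGFB2, SKIL and SMAD3 had their highest means at 6 h.

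Among the ligands, TGFB2 rose at 6 h, TGFB3 fell at 6 h, and TGFB1 matched by identifier did not pass the test against 0 h at any time with TMM scaling alone. TGFB2 (ENSG00000092969, chr1:218346235-218444619 on hg38, plus strand) was at 76.3, 83.0 and 90.5 CPM in the 0 h libraries, 96.3 and 77.1 in those of 1 h, 98.4, 79.1 and 109 in those of 3 h, and 114, 140.4 and 131 in those of 6 h. It was then at 70.0, 81.0 and 74.0 CPM in the 12 h libraries and at 95.3, 117 and 108 in those of 24 h. All 6 h and all 24 h libraries lay above all 0 h libraries, and the 12 h libraries overlapped them. Against 0 h the log2 fold change was 0.62 ± 0.12 (SE) at 6 h (adjusted p = 0.00105) and 0.36 ± 0.12 at 24 h (adjusted p = 0.0253), and from 6 to 12 h TGFB2 fell by 0.77 ± 0.12 on the log2 scale (adjusted p = 0.000257).

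The 6 h value of TGFB2 kept its call under every alternative run, but the 24 h call did not. Without replicate 1 at 0 h the 24 h log2 fold change was 0.30 (adjusted p = 0.110), and without 24 h replicate 2 it was 0.29 (adjusted p = 0.115). It also missed the threshold without 0 h replicate 2 (adjusted p = 0.0612) or 24 h replicate 3 (0.0676), and with the close replicates 2 and 3 of 6 and 24 h averaged (0.0955). A separate entry, TGFB2-OT1, a noncoding transcript on the same strand, overlaps an exon of TGFB2, and the estimated counts of TGFB2 were not whole numbers in any of the 17 libraries. TGFB2-OT1 averaged 18.0 ± 2.16 CPM in the 0 h libraries, 31.8 ± 1.02 in those of 3 h and 16.9 ± 3.78 in those of 6 h (SD, n = 3 each). TGFB2 alone was called at 3 h with length and GC offsets (log2 fold change 0.26, adjusted p = 0.0104). These offsets correct each library for trends with transcript length and GC content. With them TGFB2 was also called lower at 12 h (-0.24, adjusted p = 0.0267). With the counts of both entries added and no such offsets, it was called at 3 h (0.33, adjusted p = 0.0138) and the 6 h against 3 h difference, 0.43 ± 0.12 (adjusted p = 0.00719), became 0.19 (adjusted p = 0.0813).

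TGFB3 (ENSG00000119699, chr14:75958099-75982991, minus strand) was scarce, with 15 to 45 counts in a library. It was at 1.93, 2.30 and 1.87 CPM in the 0 h libraries, 1.52 and 1.73 in those of 1 h, 1.11, 1.48 and 1.72 in those of 3 h, and 1.26, 1.06 and 1.03 in those of 6 h. It was at 1.30, 1.61 and 2.17 CPM in the 12 h libraries and 2.52, 1.74 and 3.00 in those of 24 h. All 1, 3 and 6 h libraries lay below all 0 h libraries, and the 12 and 24 h libraries overlapped them. The log2 fold change at 6 h was -0.86 ± 0.26 (adjusted p = 0.0169), and at 3 h it was -0.50 ± 0.26 (adjusted p = 0.188). The 6 h call was lost without 0 h replicate 2 (-0.76, adjusted p = 0.0624), without 6 h replicate 2 (-0.83, 0.0566) and without 6 h replicate 3 (-0.80, 0.0719).

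TGFB1 matched by identifier (chr19:41301587-41353911, minus strand) had group means of 48.3 to 54.4 CPM. Its log2 fold changes against 0 h lay between -0.12 (3 h) and 0.05 (1 h), the closest to the threshold being that at 3 h (adjusted p = 0.347), and the adjusted p over all times was 0.515. With offsets for transcript length and GC content the adjusted p over all times was 0.00701, and the 6 h against 3 h value went from 0.15 (adjusted p = 0.155) to 0.28 (adjusted p = 0.00467); library sizes alone gave 0.22 (adjusted p = 0.0352). With those offsets the 24 h value against 0 h was 0.19 (adjusted p = 0.0524), and with the replicate number as a block as well it was 0.19 (adjusted p = 0.0204) and the 3 h against 1 h value -0.24 (adjusted p = 0.0306). At 12 h its libraries spread widely, at 50.9, 44.6 and 60.5 CPM. Its exons overlap those of HNRNPUL1 on the opposite strand, and its counts were not whole in any library.

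Within a library, the share of the 3 ligand genes' summed CPM per kb that came from TGFB2 was 49.3 ± 2.54% at 0 h (SD, n = 3), 59.7 ± 2.48% at 6 h and 55.2 ± 3.24% at 24 h. TGFB1 gave 49.4 ± 2.50% at 0 h and 39.8 ± 2.39% at 6 h, and TGFB3 gave 1.27 ± 0.162% and 0.55 ± 0.102%. The 6 h libraries did not overlap those of 0 h in any of the 3 shares. An exact two-sided permutation test gave p = 0.1 for each at 6 h, the smallest that 3 libraries against 3 allow (0.3 after Benjamini-Hochberg adjustment over 15 such tests), so the design could not reach 0.05.

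**Figure D2:**
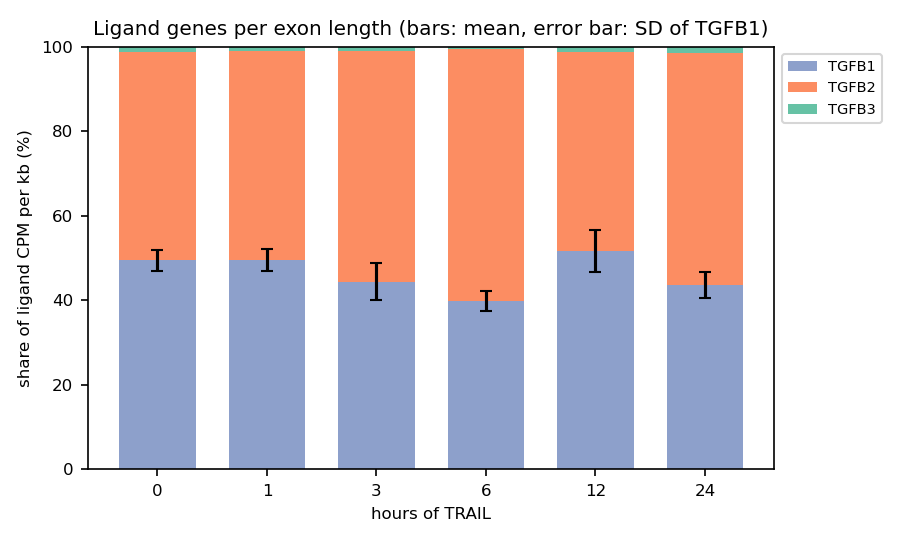
Mean share of the 3 ligand genes' CPM per kb of exon (y axis, percent, stacked bars) at each hour of TRAIL (x axis); the error bar is the SD of the TGFB1 share, n = 3 per time and 2 at 1 h. TGFB2 held 49.3% at 0 h and 59.7% at 6 h, and TGFB3 no more than 1.32% at any time.

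Both receptor genes fell at 3 h, where 17.7% of all genes tested were called, and both were higher at 24 h, where 35.1% were. TGFBR1 (ENSG00000106799, chr9:99104038-99154192, plus strand), the type I receptor kinase, was at 75.8, 81.2 and 91.4 CPM in the 0 h libraries, 93.5 and 77.2 in those of 1 h, and 63.5, 56.1 and 67.3 in those of 3 h. It was at 78.2, 97.3 and 90.2 CPM in the 6 h libraries, 78.7, 94.8 and 84.0 in those of 12 h, and 102, 118 and 117 in those of 24 h. Every 3 h library lay below and every 24 h library above the 0 h libraries, with overlap at 1, 6 and 12 h. The log2 fold change was -0.41 ± 0.10 at 3 h (adjusted p = 0.0106) and 0.44 ± 0.10 at 24 h (adjusted p = 0.00264). The 3 h call was lost without 0 h replicate 3 (-0.33, adjusted p = 0.0642) or 3 h replicate 2 (-0.34, 0.0599), and the 24 h call held under every alternative run.

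TGFBR2 (ENSG00000163513, chr3:30606502-30694142, plus strand), the type II receptor that binds ligand first, was at 99.6, 108 and 119 CPM in the 0 h libraries, 111 and 95.9 in those of 1 h, and 86.8, 71.4 and 97.9 in those of 3 h. It was at 130.2, 144 and 145 CPM in the 6 h libraries, 116, 133 and 131 in those of 12 h, and 142, 171 and 167 in those of 24 h. The 3 h libraries were all below and the 6 and 24 h libraries all above those of 0 h. Its log2 fold change was -0.35 ± 0.10 at 3 h (adjusted p = 0.0281), 0.36 ± 0.10 at 6 h (adjusted p = 0.0137) and 0.56 ± 0.10 at 24 h (adjusted p = 0.000639). From 3 to 6 h it rose by 0.71 ± 0.10 (adjusted p = 9.19e-05), the largest rise among the 9 genes in that interval, and TGFBR1 rose by 0.51 ± 0.10 (adjusted p = 0.00076).

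The 24 h call of TGFBR2 held under every alternative run. The 3 h call was lost without 0 h replicate 2 (adjusted p = 0.0689), 0 h replicate 3 (0.131), 3 h replicate 1 (0.066) or 3 h replicate 2 (0.138, log2 fold change -0.24). The 6 h call was lost without 0 h replicate 1 (adjusted p = 0.0705), 6 h replicate 2 (0.0519) or 6 h replicate 3 (0.0586), and with close replicates averaged (0.0677).

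Of the signal carriers, SMAD3 rose at 6 and 24 h, SMAD2 had a small rise at 24 h that depended on the scaling, and SMAD4 was not called against 0 h at any time. SMAD3 (ENSG00000166949, chr15:67063763-67195195, plus strand), which binds DNA directly, was at 166, 161 and 162 CPM in the 0 h libraries, 159 and 155 in those of 1 h, and 186, 179 and 182 in those of 3 h. It was at 203, 223 and 213 CPM in the 6 h libraries, 183, 181 and 166 in those of 12 h, and 195, 214 and 211 in those of 24 h. The 3, 6 and 24 h libraries lay above all 0 h libraries. The log2 fold change was 0.38 ± 0.05 at 6 h (adjusted p = 6.18e-05) and 0.34 ± 0.05 at 24 h (adjusted p = 0.000152), and both held under every alternative run. At 3 h it was 0.16 ± 0.06 with an adjusted p of 0.0474, a call lost in 13 of the 17 fits that left out 1 library. Those 13 gave adjusted p-values of 0.051 to 0.135. The value was 0.09 with library sizes alone (adjusted p = 0.289) and 0.14 with no filter (adjusted p = 0.245), and the call was also lost with upper-quartile scaling (0.0553), only the 2 groups fitted (0.0755), the replicate block (0.0557) and close replicates averaged (0.0716).

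SMAD2 (ENSG00000175387, chr18:47808957-47931146, minus strand), the other receptor-activated SMAD, was at 55.7, 54.1 and 53.4 CPM in the 0 h libraries and 63.4, 65.1 and 62.9 in those of 24 h. These libraries did not overlap, and the group means over all times ran from 49.7 to 63.8 CPM. The log2 fold change at 24 h was 0.23 ± 0.07 (adjusted p = 0.0114), but with offsets for transcript length and GC content it was -0.05 (adjusted p = 0.624), and with close replicates averaged 0.22 (adjusted p = 0.0514). Its rise from 3 to 6 h, 0.24 ± 0.07 (adjusted p = 0.00788), likewise became -0.07 (adjusted p = 0.451) with those offsets.

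SMAD4 (ENSG00000141646, chr18:51028394-51085045, plus strand), the shared partner of the other SMADs, was at 30.7, 33.9 and 36.3 CPM in the 0 h libraries, 28.9, 28.97 and 30.6 in those of 3 h, and 35.0, 40.8 and 43.4 in those of 6 h. Only the 3 h libraries stood clear of the 0 h range. Its log2 fold change at 6 h was 0.24 ± 0.10 (adjusted p = 0.0708), and without 6 h replicate 1 it was 0.33 (adjusted p = 0.0208). From 3 to 6 h it rose by 0.43 ± 0.10 (adjusted p = 0.00221), a value that was 0.17 (adjusted p = 0.0808) with length and GC offsets.

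Of the inhibitors, SMAD7 rose at 1 h and fell at 24 h. It was the only one of the 9 genes called at 1 h, where 0.312% of all genes tested were. SMAD7 (ENSG00000101665, chr18:48919853-48952052, minus strand) was at 15.99, 20.3 and 19.9 CPM in the 0 h libraries, 26.8 and 26.7 in those of 1 h, and 20.8, 19.3 and 20.9 in those of 3 h. It was at 20.1, 21.2 and 21.6 CPM in the 6 h libraries, 14.8, 16.2 and 15.9 in those of 12 h, and 12.9, 12.5 and 13.1 in those of 24 h. Both 1 h libraries were above, and all 24 h libraries below, every 0 h library. The log2 fold change was 0.51 ± 0.09 at 1 h (adjusted p = 0.0093) and -0.54 ± 0.09 at 24 h (adjusted p = 0.000188).

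The 24 h fall of SMAD7 held under every alternative run. The 1 h rise kept its size but not always its call: the log2 fold change was 0.52 without 1 h replicate 1 (adjusted p = 0.117) and 0.51 without 1 h replicate 2 (adjusted p = 0.144), each leaving 1 library at 1 h. With library sizes alone in place of TMM it was 0.47 (adjusted p = 0.0522), and fitted on those 2 times only it was 0.51 (adjusted p = 0.103). SMAD7 fell from 1 to 3 h by 0.40 ± 0.09 (adjusted p = 0.015) and from 6 to 12 h by 0.42 ± 0.09 (adjusted p = 0.0018). The first of these was also lost without either 1 h library (adjusted p = 0.114 and 0.0805) or 3 h replicate 2 (0.0555).

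SKIL (ENSG00000136603, chr3:170357678-170396835, plus strand) rose at 6 h and fell from 6 to 12 h. It was at 14.9, 16.6 and 20.5 CPM in the 0 h libraries, 21.5 and 18.2 in those of 1 h, and 20.2, 21.7 and 24.2 in those of 3 h. It was at 23.5, 25.6 and 26.1 CPM in the 6 h libraries, 15.8, 17.3 and 14.8 in those of 12 h, and 11.6, 15.2 and 15.9 in those of 24 h. The 6 h libraries alone were clear of the 0 h libraries. The log2 fold change was 0.53 ± 0.12 at 6 h (adjusted p = 0.00309), a call that held under every alternative run, and the fall from 6 to 12 h was -0.65 ± 0.12 (adjusted p = 0.000824).

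At 3 h the log2 fold change of SKIL was 0.34 ± 0.12 (adjusted p = 0.058) and at 24 h it was -0.29 ± 0.13 (adjusted p = 0.0829). With length and GC offsets both passed, at 0.45 (adjusted p = 0.000441) and -0.48 (adjusted p = 0.000257). Without 0 h replicate 3 the 3 h value was 0.48 (adjusted p = 0.0217), and without 0 h replicate 1 the 24 h value was -0.39 (adjusted p = 0.0412). Leaving out 24 h replicate 1 also brought the 3 h value past the threshold (adjusted p = 0.0317).

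Counted together, 1 of the 9 genes was called against 0 h at 1 h (SMAD7, higher), where 0.312% of all genes tested were called and 0.26% were higher. At 3 h 3 were called, SMAD3 higher and both receptors lower, against 17.7% of all genes (9.04% higher, 8.71% lower). At 6 h 5 were called, with TGFB2, TGFBR2, SMAD3 and SKIL higher and TGFB3 lower, against 30.1% of all genes (16.9% higher, 13.2% lower). At 12 h 0 of the 9 were called in the edgeR test, against 12.4% of all genes, and DESeq2 and limma-voom also called 0. Of the 9, 3 had an unadjusted p under 0.05: SMAD7 (-0.26, adjusted p = 0.055), TGFBR2 (0.22, adjusted p = 0.173) and SMAD2 (0.16, adjusted p = 0.11). Some other settings called 1 gene at 12 h. With length and GC offsets TGFB2 was called lower (-0.24, adjusted p = 0.0267), and with upper-quartile scaling SMAD7 was (-0.25, adjusted p = 0.0496). At 24 h 6 were called, with TGFB2, both receptors, SMAD2 and SMAD3 higher and SMAD7 lower, against 35.1% of all genes (18.0% higher, 17.1% lower). All 9 were called over all times in the F-test, against 64.2% of all genes. With length and GC offsets SMAD2 (adjusted p = 0.389) and SMAD4 (0.0571) were not called in that F-test. These comparisons share the 0 h libraries.

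Between consecutive times, 3 of the 9 were called from 1 to 3 h, SMAD3 higher and TGFBR1 and SMAD7 lower, where 5.73% of all genes were called (3.17% higher, 2.56% lower). From 3 to 6 h 6 were called, all higher (TGFB2, both receptors and the 3 signal carriers), against 43.2% of all genes (22.9% higher). With length and GC offsets 3 of these 6 kept their call, TGFBR2 at 0.62, TGFBR1 at 0.26 in place of 0.51 and TGFB2 at 0.22 in place of 0.43. SMAD2 and SMAD4 lost theirs, as given above, and SMAD3 went from 0.22 ± 0.05 (adjusted p = 0.003) to 0.08 (adjusted p = 0.0945). From 6 to 12 h 5 were called, all lower, against 20.6% of all genes (11.9% lower), and from 12 to 24 h 5 were called, against 12.0% of all genes (6.42% higher, 5.6% lower). The 5 that fell from 6 to 12 h were TGFB2, SKIL, SMAD7, SMAD3 (-0.27 ± 0.05, adjusted p = 0.00166) and SMAD4 (-0.32 ± 0.10, adjusted p = 0.0282). The SMAD4 call was lost without 6 h replicate 2 (adjusted p = 0.0904), 6 h replicate 3 (0.154) or 12 h replicate 1 (0.136). It was also lost with upper-quartile scaling (adjusted p = 0.0642), library sizes alone (0.0707) and close replicates averaged (0.131). From 12 to 24 h TGFB2 (0.51), TGFBR1 (0.39), TGFBR2 (0.34) and SMAD3 (0.23) rose and SMAD7 fell (-0.29). All 5 calls were lost without 24 h replicate 2 (adjusted p from 0.068 to 0.161), and also with replicates 2 and 3 of 6 and 24 h, which lie close together, averaged into 1 library each. The calls of TGFB2, TGFBR1, TGFBR2 and SMAD7 were also lost without 12 h replicate 1 (adjusted p from 0.0587 to 0.155), and those of TGFBR1, TGFBR2, SMAD3 and SMAD7 without 12 h replicate 3 (from 0.0538 to 0.1) or 24 h replicate 3 (from 0.0569 to 0.136). SMAD7 lost its call in 11 of the 17 fits that left out 1 library (adjusted p from 0.0533 to 0.152), with DESeq2 (0.056), with library sizes alone (0.0978), with no filter (0.0775) and with only the 2 groups fitted (0.0572). From 1 to 3 h the TGFBR1 call (-0.45 ± 0.11, adjusted p = 0.023) was lost without 1 h replicate 1 (adjusted p = 0.358), 3 h replicate 1 (0.06) or 3 h replicate 2 (0.0909), and the SMAD3 call (0.21 ± 0.06, adjusted p = 0.047) in 14 of the 17 fits that left out 1 library (adjusted p from 0.0508 to 0.225).

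**Figure D3:**
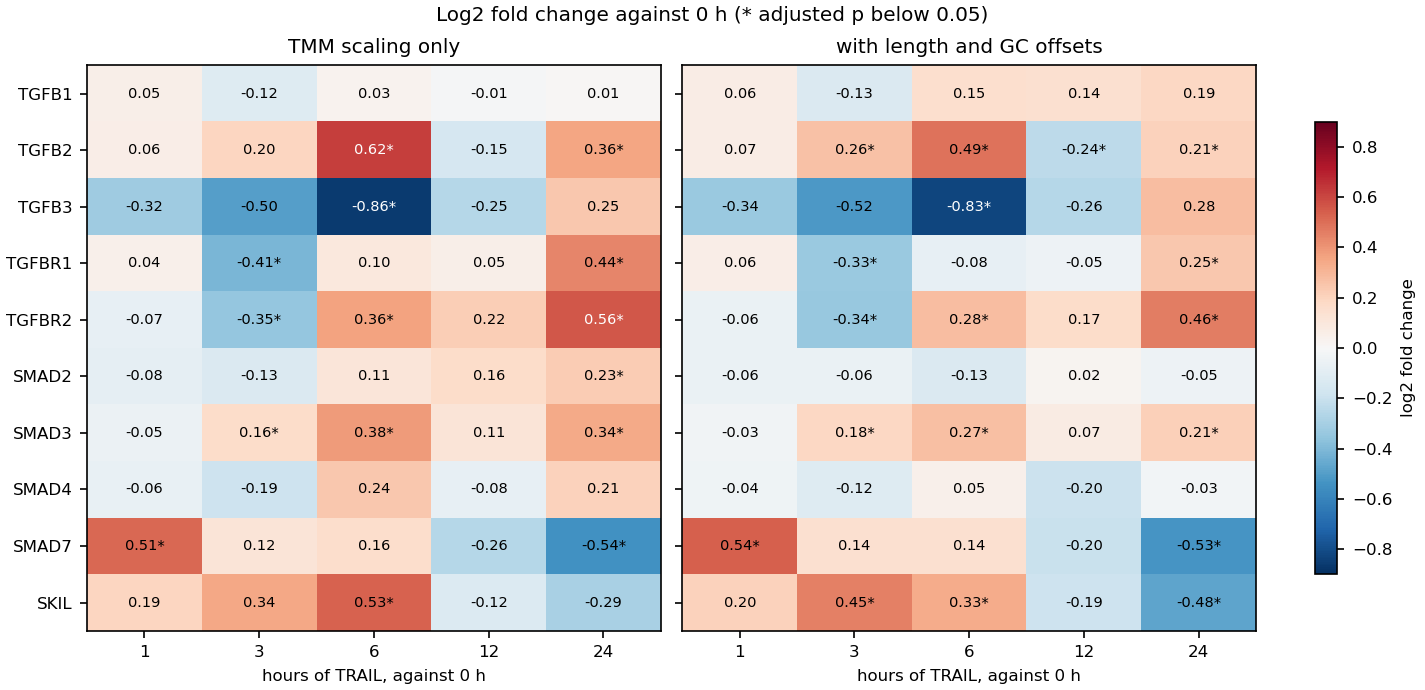
Log2 fold change against 0 h of each gene (rows) at each later hour (columns), with TMM scaling only (left) and with added offsets for transcript length and GC content (right); a star marks an adjusted p below 0.05. SMAD7 kept its early rise and late fall in both, while the SMAD2 value at 24 h went from 0.23 to -0.05.

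Long and short transcripts were not sampled alike in all libraries. Set against the mean library, log2 CPM changed per doubling of transcript length by -0.05 on average in the 0 h libraries, -0.08 in those of 1 h, -0.10 in those of 3 h, 0.08 in those of 6 h, 0.02 in those of 12 h and 0.10 in those of 24 h. Mitochondrial genes took 6.75%, 8.68%, 8.58%, 4.49%, 5.72% and 3.90% of the counts at the same times. With offsets for length and GC content, the share of all genes called against 0 h was 0.449%, 25.5%, 29.7%, 16.2% and 34.2% in the order of the 5 later times. The slope was lowest at 3 h and highest at 24 h, as were the mean levels of TGFBR1, TGFBR2 and SMAD2, and SMAD7 was lowest at 24 h. Between those ends the order of TGFBR1 (higher at 1 h than at 0 h) and of SMAD2 (higher at 12 h than at 6 h) differed from that of the slope. The means of TGFBR2 kept the order of the slope at all 6 times. They were 85.4, 104, 109, 127, 140 and 160 CPM at 3, 1, 0, 12, 6 and 24 h. With length and GC offsets the 24 h log2 fold changes were 0.25 for TGFBR1 (adjusted p = 0.00116), 0.46 for TGFBR2 (0.000605), 0.21 for TGFB2 (0.0268), 0.21 for SMAD3 (0.000332) and -0.53 for SMAD7 (0.000127). The part of the mitochondrial share in these values was not tested.

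**Figure D4:**
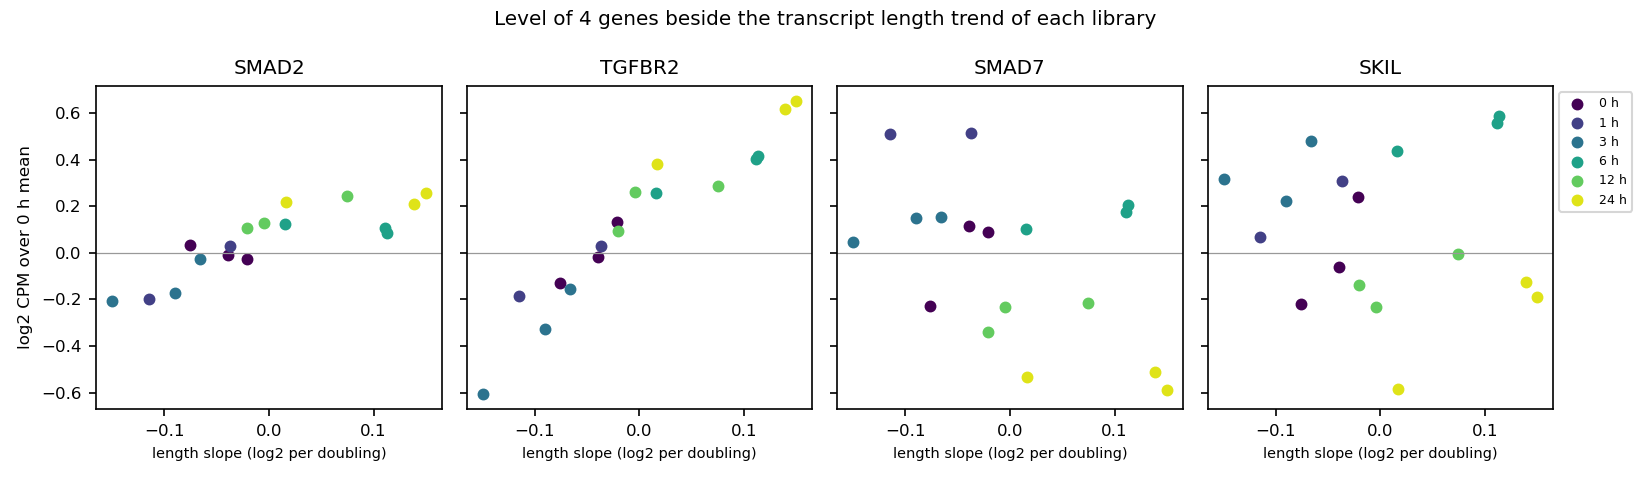
Log2 CPM over the 0 h mean (y axis) against the length slope of the library (x axis, log2 per doubling of transcript length) for SMAD2, TGFBR2, SMAD7 and SKIL; each point is 1 of 17 libraries, coloured by time. TGFBR2 and SMAD2 were higher in libraries with a larger slope, whereas the 2 libraries of 1 h and the 3 of 24 h lay at opposite ends for SMAD7.

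The wider pathway was described with 75 other listed genes, of which 70 were tested. At 1 h 3 of the 70 were called, all higher, at 3 h 16 were higher and 11 lower, at 6 h 32 higher and 7 lower, at 12 h 6 higher and 14 lower, and at 24 h 19 higher and 17 lower. The median log2 fold change of the 70 was 0.25 at 6 h, where that of all genes tested was -0.02, and it lay between -0.02 and 0.10 at the other times. At the same times 0.312%, 17.7%, 30.1%, 12.4% and 35.1% of all genes tested were called. With length and GC offsets the 6 h count was 27 higher and 8 lower, and the median 0.18. At 24 h the balance of calls turned over with those offsets, to 16 higher and 20 lower. The median there was 0.05, where that of all genes tested was 0.01.

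Of the 12 tested genes that hold ligand latent or release it, 4 fell at 3 h, 4 rose and 1 fell at 6 h, 4 fell at 12 h, and 2 rose and 3 fell at 24 h. At those times 17.7%, 30.1%, 12.4% and 35.1% of all genes tested were called in either direction. THBS1, thrombospondin 1, which can activate latent TGF-beta, was at 1283 ± 138 CPM at 0 h and 2300.2 ± 312 at 6 h (log2 fold change 0.84 ± 0.13, adjusted p = 0.000301); its counts were not whole in any library. LTBP2 and LTBP3, latent TGF-beta binding protein genes, fell at 12 h by 0.50 ± 0.08 (adjusted p = 0.000463) and 0.56 ± 0.12 (adjusted p = 0.00505) on the log2 scale. NRROS, which can anchor latent ligand to a cell surface, was lower at 3 h (-0.67 ± 0.16, adjusted p = 0.00631). The integrin gene ITGAV was called higher at 6 h (0.61 ± 0.20, adjusted p = 0.0321) and 24 h (0.56 ± 0.20, adjusted p = 0.041). Both ITGAV calls were lost without 0 h replicate 1 (adjusted p = 0.122 and 0.149), 0 h replicate 2 (0.0795 and 0.0967) or replicate 2 (0.103 and 0.135) or 3 (0.108 and 0.128) of the time itself.

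Of the 10 tested co-receptors and related receptors, 4 fell at 3 h, 1 rose at 6 h and 4 rose at 24 h. Over all genes tested 8.71% were called lower at 3 h, 16.9% higher at 6 h and 18.0% higher at 24 h. In either direction the shares were 17.7%, 30.1% and 35.1%. With length and GC offsets the 4 falls at 3 h kept their calls. The 6 h rise, that of BMPR2, was lost with them (adjusted p = 0.16), and NRP1 was called lower at 6 h (-0.16, adjusted p = 0.00326). At 24 h TGFBR3 kept its call with offsets, while BMPR2 (adjusted p = 0.131), ACVR2B (0.183) and NRP1 (0.53) lost theirs. ACVR2A was then called lower at 24 h (-0.34, adjusted p = 0.0132). TGFBR3, betaglycan, which presents ligand to TGFBR2, averaged 7.12 ± 0.251 CPM in the 0 h libraries, 4.31 ± 0.305 in those of 3 h, 6.32 ± 0.781 in those of 6 h, 9.00 ± 1.32 in those of 12 h and 12.9 ± 2.40 in those of 24 h (SD, n = 3). Like TGFBR1 and TGFBR2 it was lowest at 3 h and highest at 24 h, but its 6 h mean lay below its 0 h mean. Its log2 fold change was -0.72 ± 0.16 at 3 h (adjusted p = 0.00484) and 0.86 ± 0.14 at 24 h (adjusted p = 0.000161).

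Among the 23 other SMADs, partners and regulators, 5 were higher and 2 lower at 3 h, 15 higher and 2 lower at 6 h, at 12 h 2 in each direction, and in the last group, at 24 h, 10 higher with 2 lower. The share of all genes tested that was called at these times was 17.7%, 30.1%, 12.4% and 35.1%. PMEPA1, which sequesters receptor-activated SMADs and is itself a TGF-beta target, averaged 122 ± 0.412 CPM in the 0 h libraries, 202 ± 4.26 in those of 3 h, 192 ± 2.80 in those of 6 h, 88.8 ± 2.92 in those of 12 h and 54.1 ± 2.93 in those of 24 h (SD, n = 3). It rose by 0.73 ± 0.05 at 3 h (adjusted p = 5.46e-09) and fell by 1.17 ± 0.05 on the log2 scale at 24 h (adjusted p = 2.77e-11). TGIF2, a SMAD corepressor gene, rose at 3 h (0.69 ± 0.07, adjusted p = 1.00e-06), and RNF111 (Arkadia), a ligase that degrades SMAD7 and SnoN proteins, rose at 24 h (0.79 ± 0.13, adjusted p = 0.000195). The inhibitory SMAD6 was called lower at 3 h (-0.60 ± 0.18, adjusted p = 0.0245). That call was lost without 0 h replicate 1 (adjusted p = 0.0883), 0 h replicate 2 (0.0699), 3 h replicate 1 (0.124) or 3 h replicate 2 (0.0623). SMAD9, at 12 to 38 counts, was called lower at 3 h (-0.69 ± 0.23, adjusted p = 0.0479), and DESeq2 did not call it (adjusted p = 0.135). It was also lost in 9 of the 17 fits that left out 1 library, with adjusted p-values of 0.0501 to 0.176.

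Of 25 tested textbook target genes of TGF-beta, 3 were higher at 1 h. In the 3 h libraries 11 were higher and 1 lower. By 6 h there were 12 higher and 4 lower. Later the balance of calls was the other way, with 8 lower against 4 higher at 12 h and 12 lower against 3 higher at 24 h. Their median log2 fold change was 0.12, 0.27, 0.31, -0.03 and -0.27 at the 5 times, where the medians of all genes tested lay between -0.02 and 0.00. In the same order 0.312%, 17.7%, 30.1%, 12.4% and 35.1% of all genes tested were called. The list was not split by the direction in which TGF-beta moves each gene, so its counts and medians are not a reading of pathway activity. MYC was among the lower calls at 12 and 24 h and ID1 among the higher calls at 12 h. The matrix protein gene TGFBI fell at 24 h (-0.84 ± 0.06, adjusted p = 4.39e-09) and was at -0.07 at 3 h (adjusted p = 0.427). Not all targets were low at 24 h: the cytokine gene IL11 rose at 3 h (1.48 ± 0.08, adjusted p = 1.13e-10) and was still higher at 24 h (1.15 ± 0.08, adjusted p = 7.21e-09). JUNB, an AP-1 subunit gene, rose at 1 h (0.79 ± 0.11, adjusted p = 0.000649) and 3 h (1.75 ± 0.10, adjusted p = 3.46e-10), and the cell cycle inhibitor CDKN1A rose at 6 h (0.96 ± 0.06, adjusted p = 1.24e-09).

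PTHLH, at 9 to 34 counts, was called lower at 24 h (-0.92 ± 0.29, adjusted p = 0.0179). That call was lost without 0 h replicate 3 (adjusted p = 0.054) or 24 h replicate 1 (0.0617), with DESeq2 (0.0594) and with no filter (0.0519). Many of these targets respond to other signals as well, and COL1A1 is also on the list of fibroblast markers. COL1A1 was at 5.87 to 17.4 CPM.

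**Figure D5:**
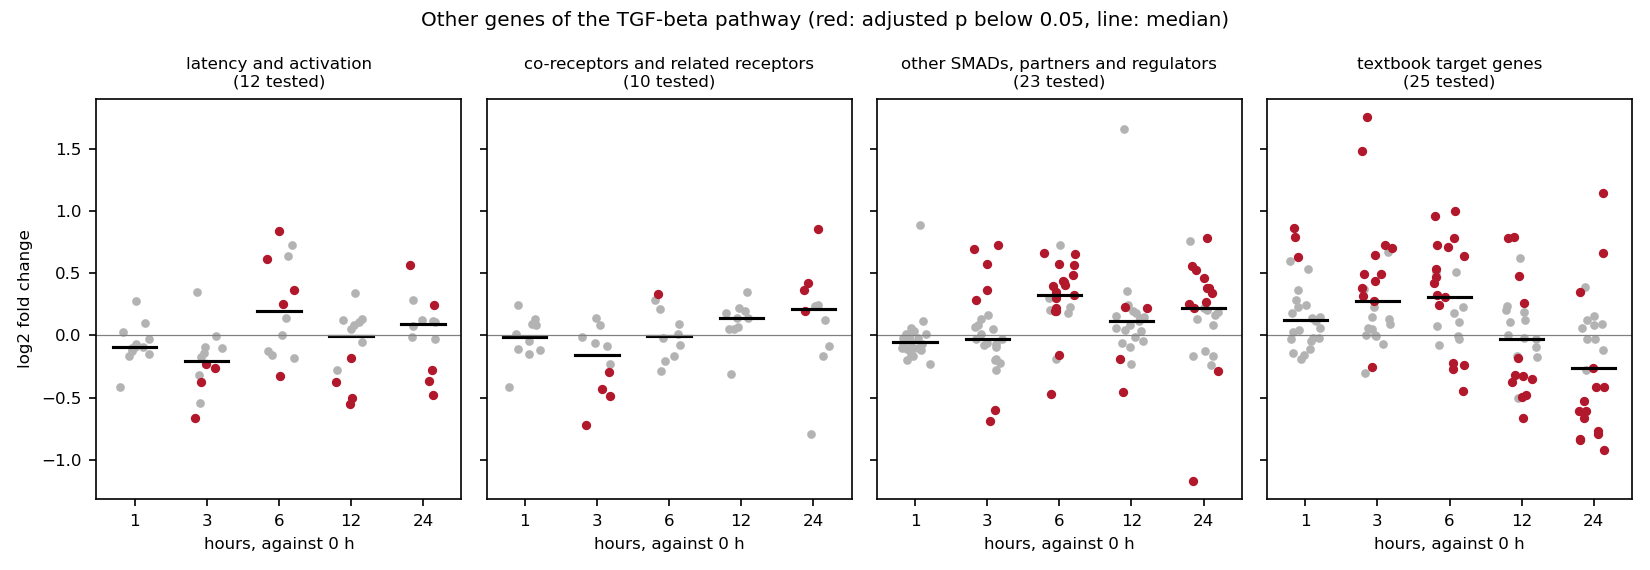
Log2 fold change against 0 h (y axis) of each tested gene of 4 lists (panels) at each later hour (x axis); red points have an adjusted p below 0.05, grey points do not, and the bar is the list's median. The median of the target genes was 0.27 at 3 h and 0.31 at 6 h, and -0.27 at 24 h.

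The genes whose log2 CPM followed that of a member most closely over the 17 libraries were taken for the 3 members with the widest range of group means, among 11320 genes. For SMAD7 they were ATF3 (Pearson r = 0.92), MYC (0.92) and CDK5R1 (0.89), and for TGFB3 RRAGA (0.88), ZNF438 (0.87) and COPG1 (0.85). For TGFBR2 they were CLTC, APOL6 and ADAM10, each at 0.98. These values describe libraries that share their times and their length trends.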

How the data were processed

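The authors deposited 1 table of gene-level expected counts, made with RSEM per its file name and unscaled for depth or length; 10.8% of the values were not whole numbers. Per the submitters' processing notes the reads were handled with cutadapt 1.18, STAR 2.7.0f and hg38; which annotation was counted, and with which strand setting, is not given in the sources used here.

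Here the counts were rounded and tested with edgeR 4.0.16 (TMM, filterByExpr, robust quasi-likelihood fit, 1 mean per time, all 17 libraries, R 4.3.3). P-values were adjusted by Benjamini-Hochberg over all 15365 genes tested, and called means below 0.05. DESeq2 1.42.0 and limma-voom (limma 3.58.1) served as alternatives. The length and GC offsets were natural splines with 4 degrees of freedom per library, from GENCODE 29 transcripts; 36 tested genes had no value for them. Ligand shares used the union of exons. All members are named; other pathway genes were named where called at 1 or more times with a log2 change there of 0.5 or more in size, at most 3 in each direction per list. Likeness was searched among genes averaging 2 or more on the log2 CPM scale. The scripts were tested on simulated counts. The members and lists were chosen with earlier results of these data known.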

Additional observations from a re-analysis of the deposited data

How the results depend on the processing

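Each result was recomputed under 32 alternatives, 17 of which left out 1 library; the sum of TGFB2 with TGFB2-OT1, and TGFB1 counted as a member, were chosen after seeing the data. Of the 15 called values of members against 0 h, 7 held under every alternative (TGFB2, SMAD3 and SKIL at 6 h, and TGFBR1, TGFBR2, SMAD3 and SMAD7 at 24 h). The 9 genes gave 0 calls at 1 h with library sizes alone or with only the 2 groups fitted (0 to 1 without 1 library). At 3 h they gave 5 with length and GC offsets, also with the replicate block (0 to 4 without 1 library), at 6 h 3 to 6 without 1 library, and at 24 h 5 to 6. At 12 h they gave 1 call with upper-quartile scaling, no filter, a mean count of at least 10, non-robust estimation or offsets (block or not). The gene called was SMAD7, or TGFB2 with offsets, or TGFBR2 with no filter. Without 1 library they gave 0 to 1 at 12 h. Over all times 9 were called whichever library was left out, but with offsets SMAD2 and SMAD4 were not. Consecutive counts were 0 from 1 to 3 h with only the 2 groups (0 to 3 without 1 library), 3 from 3 to 6 h with offsets, with or without the block (6 whichever library was left out), 4 to 5 from 6 to 12 h without 1 library, and 0 from 12 to 24 h with close replicates averaged (0 to 6 without 1 library). The other pathway genes gave 5 calls at 1 h with no filter (3 to 4 without 1 library), 23 at 6 h with close replicates averaged (25 to 40 without 1 library), and, without 1 library, 23 to 28 at 3 h, 14 to 23 at 12 h and 24 to 38 at 24 h. SMAD2 reversed with offsets, to -0.0487 at 24 h against 0 h (-0.0501 with the replicate block) and -0.0723 at 6 h against 3 h (-0.0737 with the block); the cause was not tested for these changes. With the longest transcript the TGFB2 share at 0, 1, 6 and 24 h was 45.5%, 45.8%, 56.2% and 51.4%; without 1 library the ranges at the 6 times in order were 48.1 to 50.6%, 47.5 to 51.4%, 53.3 to 57.3%, 58.4 to 60.9%, 44.4 to 49.3% and 53.8 to 57.0%. The labels give replicate numbers without a stated meaning, so the block was not the main design. Deviations of same-numbered libraries from their group means correlated at r from -0.142 to 0.211 (median 0.037, against -0.0259 for other numbers). Of 30 such pairs 7 were above 0.1, and 10 of 15 libraries correlated best with their own number. That is a hint of pairing from the data only. With the replicate block the counts at 1, 3, 6, 12 and 24 h were 1, 3, 6, 0 and 6: SMAD4 at 6 h (0.24, adjusted p = 0.0465) and SKIL at 3 h (0.35, adjusted p = 0.0357) were gained and SMAD3 at 3 h (0.16, adjusted p = 0.0557) was lost. Where 1 library was left at 1 h, it was assumed to vary like the other groups. Low counts limit TGFB3, whose differences at 15 to 45 counts are the least precise.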
